A study of Mus musculus with 12 samples.

Results

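The effect of *Txnip* loss on brown adipose tissue (BAT) at room temperature (RT, 23 °C) was examined in 6 RNA-seq libraries, 3 from *Txnip*-/- mice and 3 from WT mice, of the 12 libraries of the study. The other 6 libraries came from mice of both genotypes kept at thermoneutrality (TN, 30 °C) and are used at the end, for the muscle sums and in the alternative fit of all 12 samples. All 12 mice were 10-week-old males on a C57B/6J background that spent 1 week at their temperature on standard chow, and the WT mice were littermates of the *Txnip*-/- mice. *Txnip* was missing from the whole body, so an effect inside brown adipocytes cannot be told apart here from an effect of its loss in other tissues, and which exons were removed is not given in the sources used here. The 3 values given for a group below are those of mice 1, 2 and 3 in this order, in TPM (reads scaled for transcript length and for library size to a common total). Nothing beyond the numbering names these mice as separate litters, so each p-value measures only the spread between these samples.

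BAT burns fatty acids and glucose to make heat, which mitochondria of brown adipocytes release when UCP1 lets protons back across their inner membrane. TXNIP belongs to the alpha-arrestins, binds the redox protein thioredoxin, and promotes the removal of glucose transporters from the cell surface. Its gene is known for a strong response to glucose, through carbohydrate response elements in its promoter.

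*Txnip* itself (chromosome 3, 96557957 to 96561857, plus strand, mm10) measured 564, 581 and 694 TPM in WT mice and 24.8, 26.9 and 35.4 TPM in *Txnip*-/- mice. No WT library came near a *Txnip*-/- library, and 4.74% of the WT mean was left. The means were 613 ± 70.8 and 29.02 ± 5.59 TPM (SD, n = 3), a log2 fold change of −4.36 (SE 0.14, adjusted p = 5e-05) with limma. An exact two-sided permutation test on the 6 values returned p = 0.1, and groups of 3 can give none smaller. The antisense gene *Gm15441*, a gene chosen after its values were seen, shares exon bases with *Txnip* on the opposite strand and measured 184, 188 and 220.0 TPM in WT and 169, 171 and 174 TPM in *Txnip*-/- mice. What part of the reads left on *Txnip* came from it was not tested. Of the 5 alpha-arrestins tested, *Txnip* was the only one called, and the other 4 had higher means in *Txnip*-/- mice without passing the test.

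The promoter of *Txnip* is shown because the glucose response of the removed gene is known to run through this region (RefSeq, GRCm38.p6, plus strand, chr3:96557707-96558006, from 250 bases before to 50 bases after the start). Capitals mark CCAAT on either strand, at 137 and 102 bases before the start, and CACGAG at 85 and 74 bases before it.
Txnip: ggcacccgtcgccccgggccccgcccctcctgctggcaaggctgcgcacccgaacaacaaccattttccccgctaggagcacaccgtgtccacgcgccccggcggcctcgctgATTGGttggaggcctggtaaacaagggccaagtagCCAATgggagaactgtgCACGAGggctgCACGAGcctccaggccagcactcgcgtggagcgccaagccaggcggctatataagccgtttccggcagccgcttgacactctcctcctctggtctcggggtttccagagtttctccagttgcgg
CCAAT, searched on both strands, was in 38.4% of the 9279 promoters of tested genes, and CACGAG in 8.56%. Both motifs were picked after the promoters were seen.

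Over the whole transcriptome the genotypes differed in a moderate number of genes. A gene was called when its Benjamini-Hochberg adjusted p was under 0.05 and its log2 fold change above 0.32 or below −0.32, on the scale log2(TPM + 1). Of 11980 genes with a mean of at least 1 TPM over the 6 libraries, 178 (1.49%) were called, 91 (0.76%) higher in *Txnip*-/- mice and 87 (0.726%) lower. The balance shifted with the scaling, to 74 higher and 103 lower under upper-quartile normalization and 76 and 98 under median centring. Before adjustment, 1185 genes (9.89%) had p under 0.05 and were higher, and 736 (6.14%) were lower. The groups did not overlap in any of the 178 called genes, nor in 22.6% of all tested genes. The median log2 fold change of all tested genes was 0.03, so the distribution was centred close to no difference. Of the 91 genes called higher, 22 had a WT mean under 1 TPM, and of the 87 called lower, 9 had a *Txnip*-/- mean under 1 TPM.

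**Figure D1:**
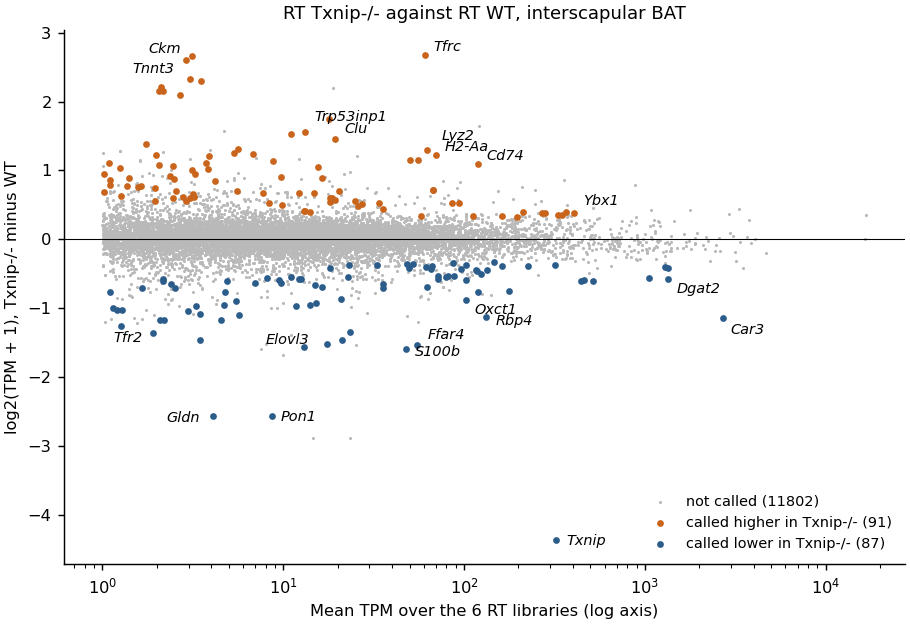
Log2 fold change of *Txnip*-/- over WT at RT (vertical axis) against the mean TPM over the 6 libraries (horizontal axis, log scale), with 1 point per gene for the 11980 genes tested and colour for the 91 genes called higher and the 87 called lower. *Txnip* at −4.36 and *Tfrc* at 2.69 lie at opposite ends.

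The 6 libraries held between 32.2 and 41.0 × 1e6 reads. Correlations of log2(TPM + 1) were 0.984 to 0.993 within groups and 0.981 to 0.987 between them, and the first principal component (36.9% of the variance) separated the genotypes. Leaving out 1 library left 31, 2 and 159 calls without WT mice 1, 2 and 3, and 33, 87 and 25 calls without *Txnip*-/- mice 1, 2 and 3. Only *Txnip* and *Pon1* were called in all 6 of these fits and 28 of the 178 in at least 3, and no call changed sign. Each other call below therefore depends on at least 1 library for its side of the threshold. Among the *Txnip*-/- libraries, mouse 2 was the lowest of the 3 in 57 of the 91 genes called higher. In bulk tissue, fewer cells of a type and less RNA per cell cannot be told apart.

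On the log2(TPM + 1) scale the gene with the largest increase was a receptor for iron uptake. *Tfrc* (chromosome 16, 32608896 to 32632794), the transferrin receptor through which cells take up transferrin-bound iron, measured 22.6, 16.9 and 9.42 TPM in WT and 94.4, 121 and 99.6 TPM in *Txnip*-/- mice. The lowest *Txnip*-/- library was above the highest WT library several times over, and the WT values themselves were spread. Means were 16.3 ± 6.603 and 105 ± 14.01 TPM, a 6.44-fold increase and a log2 fold change of 2.69 (SE 0.27, adjusted p = 0.01299). With 1 library left out, this value stayed between 2.36 and 2.95. *Tfr2*, a second transferrin receptor that senses iron in liver and red cell precursors, moved the other way, with 3.23, 2.62 and 3.73 TPM in WT and 0.486, 0.669 and 0.746 TPM in *Txnip*-/- mice. It fell with a log2 fold change of −1.35 (SE 0.13, adjusted p = 0.0123) and was below 1 TPM in each *Txnip*-/- library, so that it passed the filter through its level in WT mice. *Cp*, which encodes the ferroxidase ceruloplasmin, was called higher, with means of 6.64 and 10.02 TPM (log2 fold change 0.53, adjusted p = 0.0261). *Slc40a1*, the iron exporter ferroportin and a gene chosen after its values were seen, measured 23.5, 16.5 and 9.78 TPM in WT and 5.97, 4.46 and 5.803 TPM in *Txnip*-/- mice, groups that did not overlap, but it did not pass the test (log2 fold change −1.38, adjusted p = 0.0636). It passed in 3 of 17 alternative fits, without WT mouse 3 (−1.70), with all 12 samples in 1 fit and on the log-scale values of the authors (−0.95). Of 16 tested genes of iron handling, 2 were called higher and 1 lower, with a list median of 0.06.

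*Tfrc* mRNA is a textbook case of control by iron regulatory proteins, which bind hairpins in its 3′ untranslated region when iron is scarce and protect the mRNA from decay. Windows of 30 bases that fit the hairpin pattern, a C, any 5 bases and the loop CAGTGN with 5 paired stem bases on either side, were searched for in the transcript Tfrc-201 (GENCODE, 4890 bases, stop codon ending at base 2432). The search found 4 such windows, all past the stop codon, shown 5′ to 3′ with the loop in capitals because they are the sites through which this gene is known to respond to iron.
Bases 3315 to 3344: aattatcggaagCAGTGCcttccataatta
Bases 3694 to 3723: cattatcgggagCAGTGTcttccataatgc
Bases 3759 to 3788: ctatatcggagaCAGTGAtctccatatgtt
Bases 3806 to 3835: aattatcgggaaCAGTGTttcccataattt
The flanks of the 4 windows differ, while the search pattern itself fixed all of the loop but its last base. A match to the pattern is a description of the sequence, and neither tissue iron nor binding of the regulatory proteins was measured.

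*Pon1* was, beside *Txnip*, the only gene whose call held in each fit that left out 1 library. The gene (chromosome 6, 5168090 to 5193946, minus strand) encodes paraoxonase 1, an esterase known for its place on circulating high-density lipoprotein. It measured 17.3, 17.4 and 11.8 TPM in WT and 1.97, 1.83 and 1.495 TPM in *Txnip*-/- mice, so each WT library was several times above each *Txnip*-/- library. The mean fell from 15.5 ± 3.22 to 1.76 ± 0.242 TPM, 8.801-fold, with a log2 fold change of −2.56 (SE 0.16, adjusted p = 0.00304). Its neighbour *Pon3* fell less, with means of 59.1 and 45.99 TPM (log2 fold change −0.35, adjusted p = 0.0436). All 3 tested paraoxonases had lower means and 2 were called.

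The other genes with the largest decreases had varied roles. *Ptgds*, which makes prostaglandin D2 and carries lipophilic molecules, measured 18.2, 17.04 and 24.5 TPM in WT and 6.69, 5.101 and 6.35 TPM in *Txnip*-/- mice. *S100b*, a calcium-binding protein that brown adipocytes secrete and that promotes their sympathetic innervation, measured 71.2, 69.4 and 75.7 TPM in WT against 19.1, 23.2 and 27.97 TPM in *Txnip*-/- mice. *Nnmt*, which methylates nicotinamide at the expense of S-adenosylmethionine, measured 39.3, 27.1 and 27.8 TPM in WT against 9.41, 13.8 and 9.004 TPM in *Txnip*-/- mice. In none of these did the groups overlap, and the log2 fold changes were −1.56 (SE 0.15, adjusted p = 0.0123), −1.60 (SE 0.13, adjusted p = 0.00848) and −1.47 (SE 0.19, adjusted p = 0.0221). *Gldn*, gliomedin of the node of Ranvier, fell from 7.77 to 0.3997 TPM (log2 fold change −2.57, adjusted p = 0.0123). *Gldn* passed the filter through its level in WT mice. *S100b* and *Gldn* were the 2 called members of the nerve and Schwann cell list, of which 14 genes were tested and 13 had lower means (median −0.20). The summed TPM of the 3 defining Schwann markers was 5.69, 35.7 and 4.86 in WT and 5.14, 4.33 and 20.7 in *Txnip*-/- mice, so the groups overlapped and WT mouse 2 and *Txnip*-/- mouse 3 stood above the others. Whether the number of Schwann cells played a part was not tested.

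*Ffar4*, the receptor for long-chain fatty acids known as GPR120, measured 71.4, 72.7 and 101 TPM in WT and 31.5, 37.1 and 17.2 TPM in *Txnip*-/- mice, with a log2 fold change of −1.53 (SE 0.27, adjusted p = 0.0472). *Rbp4*, the carrier of retinol in plasma, measured 174, 142 and 236 TPM in WT and 76.7, 89.5 and 78.96 TPM in *Txnip*-/- mice, with a log2 fold change of −1.13 (SE 0.17, adjusted p = 0.03003). The lowest WT value was above the highest *Txnip*-/- value in both genes, while WT mouse 3 was the highest of all in each. *Aldh1l1*, which oxidizes formyl-tetrahydrofolate in the folate cycle, fell from 33.9 to 12.7 TPM (log2 fold change −1.34, adjusted p = 0.0123), and *Cpn2*, the regulatory subunit of carboxypeptidase N, from 18.8 to 9.26 TPM (log2 fold change −0.95, adjusted p = 0.0203). *Nap1l5*, an imprinted gene of the nucleosome assembly protein family, fell from 8.095 to 3.27 TPM (log2 fold change −1.10, adjusted p = 0.0208). *Pisd-ps1* and *Pisd-ps2*, pseudogenes of the phosphatidylserine decarboxylase gene, fell with log2 fold changes of −0.92 and −0.89. Reads of these 2 pseudogenes can come from near-identical copies, so their values are uncertain.

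**Figure D2:**
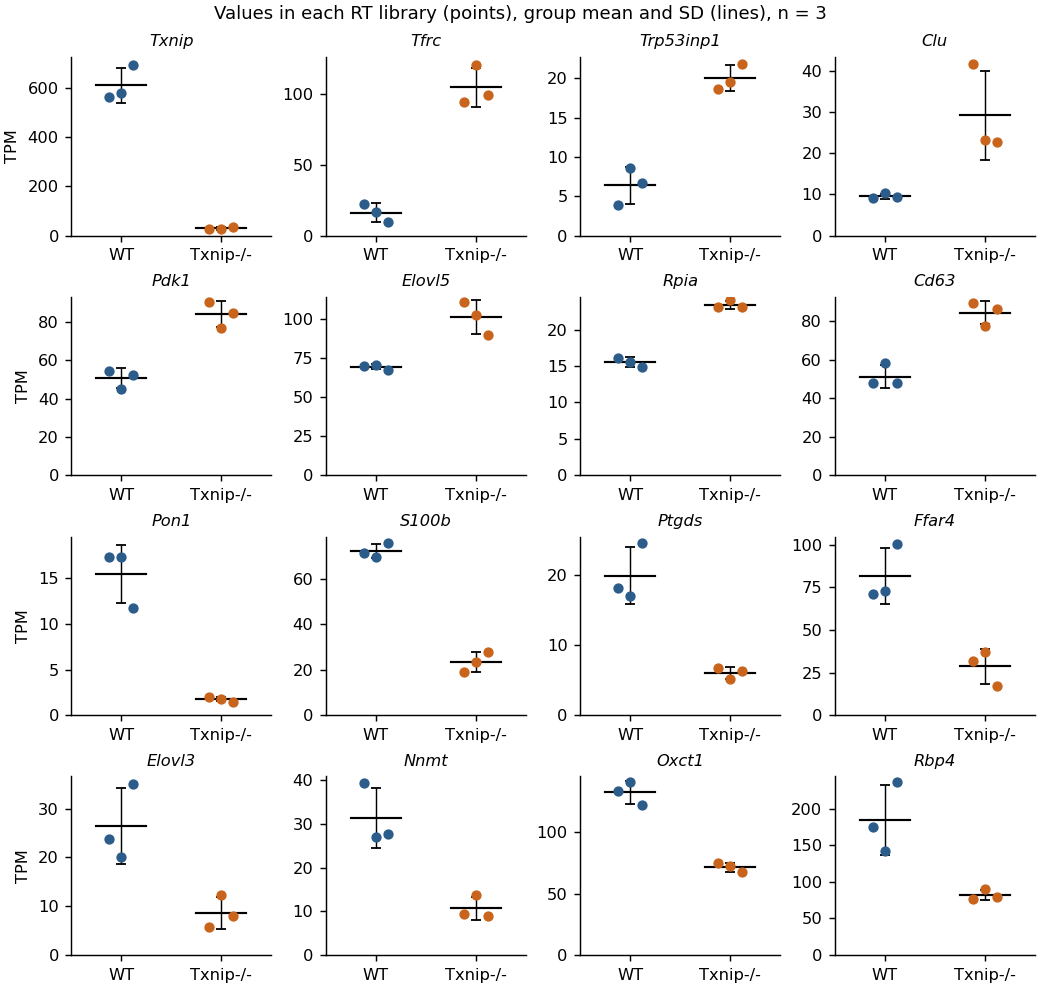
TPM (linear axes from 0) in each of the 6 RT libraries for 16 genes, 1 point per library, with lines for the group mean and SD (n = 3). In each of the 16 genes the 3 *Txnip*-/- points lie on one side of the 3 WT points, for example at 94.4 to 121 TPM above 9.42 to 22.6 TPM in *Tfrc*.

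Transcripts of mitochondrial enzymes that break down branched-chain amino acids and ketone bodies were lower in *Txnip*-/- BAT. Brown fat is known to oxidize valine, leucine and isoleucine during cold exposure, through the transaminase BCAT2, the branched-chain ketoacid dehydrogenase and a series of acyl-CoA steps. Of 25 tested genes of this route 6 were called lower, none higher, and 21 had lower means, with a list median of −0.24 against 0.03 over all genes. *Bcat2*, the first step, measured 89.7, 91.96 and 73.7 TPM in WT and 55.3, 57.02 and 62.9 TPM in *Txnip*-/- mice, and passed with the smallest margin of the 6 (log2 fold change −0.53, adjusted p = 0.0499). *Bckdhb*, a subunit of the dehydrogenase, fell with a log2 fold change of −0.44 (adjusted p = 0.03202). In the leucine branch, *Ivd* (isovaleryl-CoA dehydrogenase) measured 130.1, 128 and 113 TPM in WT and 79.8, 78.1 and 88.1 TPM in *Txnip*-/- mice, and *Mccc1* (methylcrotonyl-CoA carboxylase) 107, 103 and 103 TPM in WT against 69.8, 73.1 and 72.4 TPM in *Txnip*-/- mice. Their log2 fold changes were −0.59 (SE 0.08, adjusted p = 0.0238) and −0.54 (SE 0.05, adjusted p = 0.0123). In the propionate branch shared by valine and isoleucine, *Pcca* (propionyl-CoA carboxylase) and *Mmut* (methylmalonyl-CoA mutase) fell with log2 fold changes of −0.39 (adjusted p = 0.0284) and −0.37 (adjusted p = 0.0439). The calls numbered 1, 0 and 7 without WT mice 1, 2 and 3 and 1 without each of the *Txnip*-/- mice, while the list median stayed between −0.26 and −0.20. With the replicate number as a block, 1 was called lower.

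*Oxct1*, the enzyme that commits ketone bodies to oxidation (chromosome 15, 4026428 to 4155344), measured 134, 141 and 123 TPM in WT and 74.8, 72.3 and 67.2 TPM in *Txnip*-/- mice. The WT values lay well above the *Txnip*-/- values with little spread in either group, and the mean fell to 53.9% of WT (log2 fold change −0.88, SE 0.07, adjusted p = 0.00848). It was the only one called of 7 tested genes of ketone body use and synthesis. Other enzymes of small molecules fell too. *Gstz1*, which acts in tyrosine breakdown and detoxification, went from 222 to 132 TPM (log2 fold change −0.75, adjusted p = 0.0139), *Cdo1*, which oxidizes cysteine, from 1258 to 854 TPM (log2 fold change −0.56, adjusted p = 0.0203), and *Ldhd*, which oxidizes D-lactate, from 98.02 to 76.9 TPM (log2 fold change −0.35, adjusted p = 0.03901). *Sod3*, the extracellular superoxide dismutase, fell from 137 to 99.8 TPM (log2 fold change −0.46, adjusted p = 0.0472). *Gstz1* and *Sod3* were the 2 called genes among 41 tested genes of the thioredoxin, glutathione and antioxidant list, of which 21 had higher and 20 lower means.

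Lipid storage and thermogenic genes showed a small shift downward with few calls. Of 33 tested genes of thermogenesis and brown identity, 26 had lower means and 3 were called lower (median −0.15). These were *Elovl3*, an elongase of saturated fatty acids that cold induces, *Fabp3*, a cytosolic fatty acid binding protein, and *Cox7a1*, the heart and muscle form of a cytochrome c oxidase subunit. *Elovl3* measured 23.8, 20.2 and 35.1 TPM in WT and 5.74, 12.2 and 7.99 TPM in *Txnip*-/- mice, without overlap, and fell with a log2 fold change of −1.52 (SE 0.27, adjusted p = 0.0487). *Fabp3* fell from 552 ± 23.1 to 367 ± 31.3 TPM (log2 fold change −0.59, adjusted p = 0.0203) and *Cox7a1* from 1472 ± 56.3 to 1117 ± 58.6 TPM (log2 fold change −0.40, adjusted p = 0.0289). *Ucp1*, chosen after its values were seen, measured 4366, 3809 and 3769.9 TPM in WT and 2527, 3899.7 and 2673 TPM in *Txnip*-/- mice. *Txnip*-/- mouse 2 lay within the WT range while mice 1 and 3 lay below it, and the difference did not pass the test (log2 fold change −0.42, adjusted p = 0.263). Without *Txnip*-/- mouse 2 it passed, at −0.61. The number of calls in this list went to 0 without WT mouse 1, WT mouse 2, *Txnip*-/- mouse 1 or *Txnip*-/- mouse 3, to 1 without WT mouse 3 and to 4 without *Txnip*-/- mouse 2.

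The label of the tissue was checked on 7 defining markers of brown adipocytes, all of which were above 0 in each RT library. Their summed TPM was 6865, 6479 and 6517 in WT and 4843, 6476 and 4889 in *Txnip*-/- mice, so *Txnip*-/- mouse 2 was at the level of WT mice. Nearly all of each sum came from *Ucp1*, given above, and *Cidea*. *Cidea* measured 2445, 2587 and 2701 TPM in WT and 2227, 2498 and 2163 TPM in *Txnip*-/- mice. None of the 7 was called and their median log2 fold change was −0.05. *Dgat2*, the last step of triglyceride synthesis, measured 1664, 1687 and 1469 TPM in WT and 1124, 1017 and 1094 TPM in *Txnip*-/- mice and fell with a log2 fold change of −0.57 (SE 0.07, adjusted p = 0.0208). *Cideb*, a lipid droplet protein, and *Abcd2*, a peroxisomal importer of long-chain acyl-CoA, fell with log2 fold changes of −0.64 (adjusted p = 0.0209) and −0.67 (adjusted p = 0.0284). Each was the only call in its list, and *Cideb* shares most of its exon bases with *Nop9* on the opposite strand. Of 20 tested genes of mitochondrial fatty acid oxidation 19 had lower means, the list median was −0.09, and none was called. *Acaa2*, its thiolase, went from 2555 to 2057 TPM with an adjusted p of 0.04399 but within the fold limit, *Echs1*, the enoyl-CoA hydratase, from 861 to 719.7 TPM with 0.0534, and *Ndufv1* of complex I from 976 to 803 TPM with 0.0404 and likewise within the limit. *Acaa2* was called lower under upper-quartile normalization (−0.34).

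Respiratory chain subunits moved by little. None of 37 tested subunits of complex I, 8 of complex III or 17 of ATP synthase was called, and their medians were −0.04, −0.11 and −0.04. The smallest p-values belonged to *Uqcrc1* and *Uqcrc2* in complex III, at −0.16 (adjusted p = 0.196) and −0.16 (adjusted p = 0.2199), and to *Atp5b* and *Atp5l* in ATP synthase, at −0.20 (adjusted p = 0.109) and −0.20 (adjusted p = 0.142). Of 14 subunits of cytochrome c oxidase 1 was called lower, *Cox7a1* above, with a median of −0.05. *Cox8b*, chosen after its values were seen, measured 3539.5, 3401 and 3678 TPM in WT and 2617, 3084 and 2856 TPM in *Txnip*-/- mice, with no overlap and a log2 fold change of −0.31 (adjusted p = 0.0901). None of 78 mitochondrial ribosomal protein genes was called (median 0.01), and *Mrpl16* and *Mrps18a* had the smallest p-values, at −0.31 (adjusted p = 0.0726) and −0.33 (adjusted p = 0.0929). Of 37 tested mitochondrial carriers 2 were called higher, *Slc25a32*, which brings folate or flavin into mitochondria, with a log2 fold change of 0.59 (adjusted p = 0.0436) and *Slc25a36*, a carrier of pyrimidine nucleotides, at 0.40 (adjusted p = 0.0487).

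Against these decreases, genes of macrophages and of antigen presentation by MHC class II were higher in *Txnip*-/- BAT. Tissue macrophages express lysozyme, the adaptor TYROBP and complement C1q, and professional antigen-presenting cells load peptides onto class II molecules with the help of the invariant chain CD74 and cathepsin S. Of 20 tested myeloid genes out of 28 listed, 6 were called higher and 18 had higher means (median 0.73). *Ctss*, cathepsin S, measured 4.39, 4.99 and 6.09 TPM in WT and 19.9, 12.6 and 18.4 TPM in *Txnip*-/- mice. *Lyz2*, lysozyme, measured 33.6, 34.7 and 36.9 TPM in WT and 115, 61.7 and 93.4 TPM in *Txnip*-/- mice. In both genes the groups lay apart, the WT mice were close together and *Txnip*-/- mouse 2 was the lowest of its group. The log2 fold changes were 1.53 (SE 0.18, adjusted p = 0.0202) and 1.29 (SE 0.20, adjusted p = 0.0338). *Tyrobp*, *Ccr2* (the receptor for monocyte-attracting CCL2), *C1qb* and *Mrc1* (the mannose receptor) rose with log2 fold changes of 1.14, 1.08, 0.89 and 0.66, at adjusted p = 0.0415, 0.0376, 0.0487 and 0.03901. The WT mean of *Ccr2* was 0.951 TPM, under the filter, so it passed the filter through its level in *Txnip*-/- mice.

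Of 20 tested genes of antigen presentation 5 were called, all higher and all of the class II pathway, and the list median was 0.05. None of the class I genes of the list was called. *H2-Aa*, which encodes the class II alpha chain of I-A, measured 37.3, 39.7 and 45.7 TPM in WT and 115, 77.1 and 103 TPM in *Txnip*-/- mice. *H2-Eb1*, the beta chain of I-E, measured 26.1, 30.2 and 36.5 TPM in WT and 76.9, 56.4 and 76.02 TPM in *Txnip*-/- mice. *Cd74*, the invariant chain, measured 70.2, 72.2 and 82.6 TPM in WT and 185, 129.8 and 175 TPM in *Txnip*-/- mice. In all 3 the order within the *Txnip*-/- group was the same, mouse 1 highest and mouse 2 lowest, and the lowest was still above each WT mouse. The log2 fold changes were 1.23 (SE 0.15, adjusted p = 0.0203), 1.15 (SE 0.15, adjusted p = 0.0255) and 1.10 (SE 0.14, adjusted p = 0.0208). *H2-Ab1*, the I-A beta chain, and *H2-DMb1*, part of the peptide exchange factor, rose with log2 fold changes of 1.15 and 0.94.

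The promoters of *H2-Aa* and *H2-Eb1* are shown because class II promoters are known for a shared module of W, X and Y boxes, the last of which is a CCAAT sequence (RefSeq, GRCm38.p6, chr17:34287774-34288073 on the minus strand and chr17:34305617-34305916 on the plus strand, each read along its gene). Capitals mark CCAAT on either strand and, in *H2-Aa*, the palindrome TGACGTCA that cAMP response element binding proteins bind.
H2-Aa: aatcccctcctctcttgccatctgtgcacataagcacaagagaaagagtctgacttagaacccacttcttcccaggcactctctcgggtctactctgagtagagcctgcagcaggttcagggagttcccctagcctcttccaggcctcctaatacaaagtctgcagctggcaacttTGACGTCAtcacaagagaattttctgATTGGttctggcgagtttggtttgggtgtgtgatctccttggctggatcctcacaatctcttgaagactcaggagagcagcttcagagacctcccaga
H2-Eb1: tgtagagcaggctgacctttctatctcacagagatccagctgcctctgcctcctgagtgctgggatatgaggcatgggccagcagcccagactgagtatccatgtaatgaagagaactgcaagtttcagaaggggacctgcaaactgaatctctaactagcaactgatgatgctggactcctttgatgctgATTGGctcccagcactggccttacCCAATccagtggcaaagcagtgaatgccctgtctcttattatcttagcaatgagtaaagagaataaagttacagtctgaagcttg
In *H2-Aa* TGACGTCA lies 74 bases and CCAAT, on the opposite strand, 48 bases before the start. In *H2-Eb1* CCAAT lies 59 bases before the start on the opposite strand and 35 bases before it on the gene's own strand. TGACGTCA was in 3.20% of 9279 promoters of tested genes, in 5.97% of the 67 available for genes called higher and in 0% of the 57 for genes called lower. CCAAT was in 38.4%, 38.8% and 52.6%, AGGTCA, the nuclear receptor site, in 12.2%, 20.9% and 21.1%, and the E box CACGTG in 10.4%, 8.96% and 5.26%. Both strands were searched, and CCAAT was picked after the promoters were seen. Of 4 promoters available for tested class II genes 3 held CCAAT and 1 TGACGTCA. These shares are descriptions without a test.

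The myeloid and class II calls depended on single libraries. The myeloid calls numbered 0, 0 and 2 without WT mice 1, 2 and 3 and 0, 9 and 0 without *Txnip*-/- mice 1, 2 and 3, and the class II calls 0, 0 and 5 and 0, 5 and 0. The list median of the myeloid genes stayed between 0.62 and 0.91. *Txnip*-/- mouse 2 was the lowest of its group in 17 of the 20 myeloid genes and in all 5 class II genes. The summed TPM of 6 defining macrophage markers was 57.4, 58.5 and 65.6 in WT and 163, 97.1 and 143 in *Txnip*-/- mice, and 2 of the 6 were called. That of 3 B cell markers was 2.21, 2.12 and 1.11 against 1.80, 1.23 and 0.795, and that of 3 T cell markers 1.13, 2.16 and 1.74 against 3.25, 2.23 and 3.35. More macrophages and more RNA per macrophage cannot be told apart in these values.

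Further genes known from immune cells were called higher. *Ccl6*, a chemokine, *Mpeg1*, the pore-forming perforin-2 of phagocytes, and *Cd52*, a surface glycoprotein of leukocytes, rose from 2.79, 2.68 and 3.68 TPM to 8.52, 7.97 and 9.95 TPM, with log2 fold changes of 1.31, 1.26 and 1.24. *Retnla*, a marker of alternatively activated macrophages, measured 10.5, 10.04 and 8.71 TPM in WT and 23.4, 18.4 and 22.4 TPM in *Txnip*-/- mice, without overlap, and rose with a log2 fold change of 1.06 (SE 0.11, adjusted p = 0.01398). Of 13 tested genes that mark lipid-associated macrophages 3 were called, *Cd63*, a tetraspanin of late endosomes (log2 fold change 0.71, adjusted p = 0.0247), *Lgals3*, galectin-3 (log2 fold change 1.11, adjusted p = 0.02803), and *Clec7a*, the beta-glucan receptor dectin-1 (log2 fold change 1.03, adjusted p = 0.0441). The median of that list was 0.15. *Jchain*, the joining chain of secreted immunoglobulins, went from 0.378 to 1.66 TPM (log2 fold change 0.95, adjusted p = 0.0203). *Clec7a* and *Jchain* had WT means under 1 TPM and passed the filter through their level in *Txnip*-/- mice. Of 24 interferon-stimulated genes the only call was *Ifi27*, which went down from 1529.9 to 1142 TPM (log2 fold change −0.42, adjusted p = 0.0203), and the list median was 0.05.

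*Clu*, the secreted chaperone clusterin, measured 9.07, 10.3 and 9.33 TPM in WT and 41.8, 23.2 and 22.8 TPM in *Txnip*-/- mice. All *Txnip*-/- mice were above all WT mice, and *Txnip*-/- mouse 1 stood above the other two. The mean rose 3.06-fold, with a log2 fold change of 1.46 (SE 0.22, adjusted p = 0.0291), and this value lay between 1.19 and 1.61 with 1 library left out. Complement genes leaned the same way, since 17 of 18 tested genes of complement and clusterin had higher means (median 0.38), though only *Clu* and *C1qb* were called. Matrix genes were not called, with 0 of 18 collagens (median 0.21) and 0 of 34 fibroblast and matrix genes (median 0.19). In the fibroblast and matrix list the smallest p-values were those of *Bgn*, biglycan, at 0.47 (adjusted p = 0.0689) and *Mfap5*, a microfibril protein, at 0.50 (adjusted p = 0.0644), and neither was called in any of 17 alternative fits. Among the collagens they were those of *Col4a5*, a basement membrane collagen, at −0.57 (adjusted p = 0.0729) and *Col1a1*, the fibrillar type I chain, at 0.55 (adjusted p = 0.103), which lay on opposite sides. *Col4a5* was called lower in 2 alternative fits, with all 12 samples and on the log-scale values of the authors (−0.44). The summed TPM of 4 fibroblast markers was 125, 148 and 113 in WT and 155, 138 and 153 in *Txnip*-/- mice and overlapped between the groups.

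Transcripts of fast skeletal muscle were present at low levels in *Txnip*-/- libraries, and 8 of the 9 called higher had means under 1 TPM in WT. BAT between the shoulder blades lies against skeletal muscle, and these transcripts are given as values because 8 of the 17 tested muscle genes had a WT mean under 1 TPM and passed the filter only through the *Txnip*-/- mice. *Ckm*, muscle creatine kinase, measured 0.159, 0.032 and 0.041 TPM in WT and 5.41, 3.75 and 9.32 TPM in *Txnip*-/- mice. *Tnnt3*, fast troponin T, measured 0.046, 0.094 and 0 TPM in WT against 5.16, 3.22 and 8.91 TPM in *Txnip*-/- mice, and *Acta1*, skeletal actin, 0.394, 0.618 and 0.391 TPM in WT against 6.05, 3.98 and 9.76 TPM in *Txnip*-/- mice. *Txnip*-/- mouse 3 was the highest in all 9 muscle genes called higher, and mouse 2 the lowest in 8 of them. The others were *Tnnc2*, *Tnni2*, *Myh4*, *Pvalb*, *Atp2a1* and *Mylpf*, with log2 fold changes of 2.33, 2.15, 2.22, 2.16, 2.10 and 1.21. *Mylpf*, a regulatory light chain of myosin, was the exception in WT, with 1.87, 2.05 and 1.79 TPM beside 4.67, 4.67 and 8.37 TPM in *Txnip*-/- mice. The summed TPM of the 8 defining markers of skeletal muscle was 2.71, 2.99 and 2.36 in WT and 29.2, 20.1 and 50.2 in *Txnip*-/- mice. At TN the same sum was 3.63, 16.4 and 2.57 in WT and 3.42, 15.6 and 3.07 in *Txnip*-/- mice, so there 1 mouse of each genotype stood apart and the genotypes overlapped. Whether muscle was carried over at dissection was not tested.

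**Figure D3:**
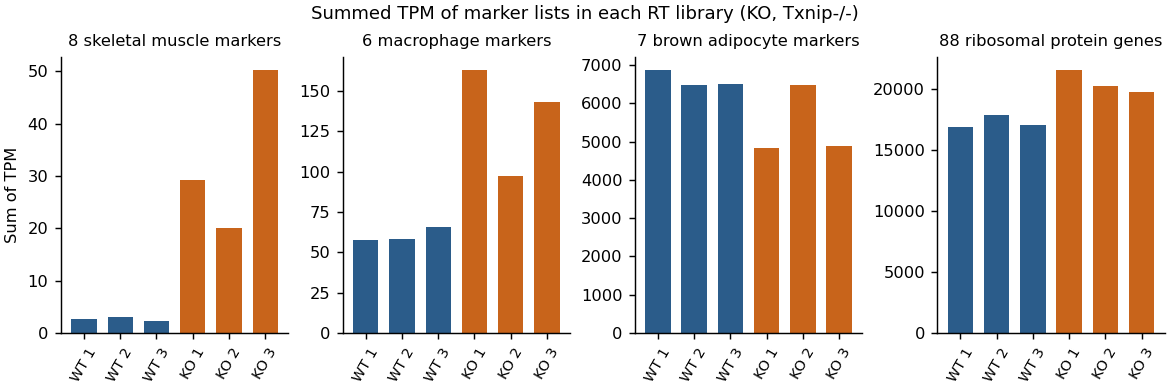
Summed TPM of 8 skeletal muscle markers, 6 macrophage markers, 7 brown adipocyte markers and 88 cytosolic ribosomal protein genes in each of the 6 RT libraries, 1 bar per library on a linear axis from 0 (KO, *Txnip*-/-). The muscle sum is 2.36 to 2.99 in WT against 20.1 to 50.2 in *Txnip*-/- mice, while the brown adipocyte sum of *Txnip*-/- mouse 2 (6476) comes close to the lowest WT sum (6479). Nearly all of the brown adipocyte sum is *Ucp1* and *Cidea*.

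Some genes known from muscle had WT means far above those of the 9 muscle genes called higher, and had lower means in *Txnip*-/- mice. WT libraries held them beside hardly any *Ckm* or *Tnnt3*, so their values cannot decide whether muscle was carried over. *Car3*, carbonic anhydrase 3, which adipocytes also express at a high level, measured 4049, 4166 and 2955 TPM in WT and 1657, 1918 and 1472 TPM in *Txnip*-/- mice, and fell with a log2 fold change of −1.14 (SE 0.15, adjusted p = 0.0238). It was in the muscle list and was its only member called lower. *Myl1*, an alkali light chain of myosin chosen after its values were seen, measured 76.6, 74.3 and 73.2 TPM in WT and 52.1, 52.8 and 62.4 TPM in *Txnip*-/- mice, so it was far above those 9 genes in both groups and lower in *Txnip*-/- mice without passing the test (log2 fold change −0.42, adjusted p = 0.0537). It passed in 3 of 16 alternative fits, under upper-quartile normalization (−0.44), median centring (−0.45) and with all 12 samples in 1 fit. *Dmpk*, the myotonic dystrophy kinase, *Srl*, sarcalumenin, and *Ak1*, adenylate kinase 1, also chosen after their values were seen, went from 27.2, 20.4 and 44.01 TPM to 14.4, 12.3 and 27.6 TPM. Their log2 fold changes were −0.87 (adjusted p = 0.00705), −0.69 (adjusted p = 0.0458) and −0.65 (adjusted p = 0.02696). When the muscle list was left out and the TPM rescaled, 168 of the 178 called genes remained among those tested. In that fit 148 genes were called, 67 higher and 81 lower, all of them among the 178. The list includes *Car3*, which made up most of what was left out. Its mean sum in WT was 3832 TPM with *Car3* and 109 TPM without it.

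Nearly all genes of the cytosolic ribosome had slightly higher means in *Txnip*-/- mice. Of 85 tested ribosomal protein genes these were 82, with a list median of 0.24 against 0.03 over all genes, and 6 passed the test. Summed over 88 genes, they took 16864, 17889 and 17064 TPM in WT and 21519, 20246 and 19761 TPM in *Txnip*-/- mice. The lowest *Txnip*-/- sum was above the highest WT sum, and the means differed 1.19-fold. Among those called were *Rpl23*, *Rpl26*, *Rps28* and *Rpl10*, with log2 fold changes of 0.40, 0.39, 0.35 and 0.32. No ribosomal gene was called in any fit that left out a library, with the replicate block, without the expression trend or on the log-scale values of the authors, and the list median ran from 0.13 to 0.28 over these fits. Ribosomal protein genes have many near-identical processed pseudogenes, and *Rpl26* shares its locus with *Gm15772*, which was called at 0.39 (adjusted p = 0.03901), so single genes are uncertain. *Ybx1*, an RNA-binding protein that represses translation, measured 356, 361 and 342 TPM in WT and 493, 443 and 451 TPM in *Txnip*-/- mice and rose with a log2 fold change of 0.39 (SE 0.06, adjusted p = 0.02999). *Bag1*, a co-chaperone of HSP70, rose from 292 to 373 TPM (log2 fold change 0.35, adjusted p = 0.0277).

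Single metabolic and signalling genes rose outside these groups. *Trp53inp1*, a p53-induced regulator of autophagy and mitophagy, measured 3.87, 8.54 and 6.74 TPM in WT and 18.6, 19.6 and 21.8 TPM in *Txnip*-/- mice. The lowest *Txnip*-/- value was well above the highest WT value, and the log2 fold change was 1.56 (SE 0.23, adjusted p = 0.0284). *Pdk1*, the kinase that shuts off pyruvate dehydrogenase, measured 54.6, 44.96 and 52.4 TPM in WT and 90.3, 76.9 and 84.8 TPM in *Txnip*-/- mice, with a log2 fold change of 0.72 (SE 0.09, adjusted p = 0.0218), and was the only gene called of 31 tested in pyruvate entry and the TCA cycle. Of those 31 genes 22 had lower means, with a list median of −0.10. An unadjusted limma p under 0.05 with a lower mean was found in 12 of them, and in 6.14% of all tested genes. *Rpia*, which makes ribose 5-phosphate in the pentose phosphate pathway, measured 16.1, 15.6 and 14.8 TPM in WT and 23.1, 24.02 and 23.1 TPM in *Txnip*-/- mice, with a log2 fold change of 0.56 (SE 0.06, adjusted p = 0.0199). In *Pdk1* and *Rpia* the groups lay apart by more than the spread within either. *Phkg1*, the catalytic subunit of muscle phosphorylase kinase, rose from 1.38 to 2.51 TPM (log2 fold change 0.56, adjusted p = 0.0474). Of 29 tested genes of glycolysis, lactate and the pentose phosphate pathway only *Rpia* and *Ldhd* were called, and the list median was −0.01.

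Fatty acid synthesis genes had higher means in *Txnip*-/- BAT beside a wide spread in WT mice. Of 14 tested genes 11 had higher means and none was called, with a median of 0.31. *Acly*, the ATP citrate lyase that feeds cytosolic acetyl-CoA to this pathway and a gene chosen after its values were seen, measured 456, 373 and 1312 TPM in WT and 1039, 1050.2 and 1060.3 TPM in *Txnip*-/- mice. *Slc2a5*, the fructose transporter GLUT5, measured 2.796, 2.19 and 21.6 TPM in WT and 29.7, 25.2 and 31.98 TPM in *Txnip*-/- mice. WT mouse 3 stood with the *Txnip*-/- mice or near them in both genes, far from WT mice 1 and 2. Without WT mouse 3, 6 of the 14 genes were called higher with a median of 0.47, and *Acly* and *Slc2a5* both passed, with log2 fold changes of 1.35 and 3.10. *Acaca*, acetyl-CoA carboxylase 1, and *Mid1ip1*, its activator, had the smallest p-values of the list, at 0.71 (adjusted p = 0.128) and 0.67 (adjusted p = 0.128), and *Acaca* passed without WT mouse 3 (0.93). *Elovl5*, which elongates polyunsaturated fatty acids, measured 70.4, 71.1 and 67.7 TPM in WT and 111, 103 and 90.1 TPM in *Txnip*-/- mice and rose with a log2 fold change of 0.53 (SE 0.08, adjusted p = 0.0326). *Gm35986*, a predicted gene opposite to the elongase gene *Elovl6*, measured 5.29, 5.98 and 13 TPM in WT and 31.3, 22.5 and 29.8 TPM in *Txnip*-/- mice and rose with a log2 fold change of 1.75 (SE 0.29, adjusted p = 0.0436). Reads of the strands cannot be told apart, since the strand used in counting is not given in the sources used here.

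Stress-responsive genes were lower in many members and passed in few. Of 18 tested heat shock genes 16 had lower means (median −0.37) and none was called. *Hspa1a*, the inducible HSP70, measured 5.55, 47.2 and 29.5 TPM in WT and 1.71, 1.47 and 2.53 TPM in *Txnip*-/- mice, and *Hspa1b*, its near-identical copy, 7.36, 67.1 and 55.97 TPM in WT against 2.21, 2.71 and 5.75 TPM in *Txnip*-/- mice. The groups did not overlap, but WT mouse 1 was well below WT mice 2 and 3, and the log2 fold changes were −2.89 (adjusted p = 0.0893) and −2.89 (adjusted p = 0.128). Without WT mouse 1 both passed, at −3.74 and −3.85, and both passed with all 12 samples in 1 fit. Of 21 tested immediate early genes 20 had lower means (median −0.37), and *Ier3*, a survival factor of this class, was called, with 18.9, 11.9 and 16.95 TPM in WT and 6.91, 7.92 and 7.798 TPM in *Txnip*-/- mice and a log2 fold change of −0.96 (SE 0.16, adjusted p = 0.0415). Over fits with 1 library left out the medians ran from −0.64 to −0.23 in the heat shock list and from −0.66 to −0.11 in the immediate early list.

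Several lists had no call in either direction, beside 1.49% called over all tested genes. At that share lists of this size can lack a call without standing apart from other genes. These were 20 tested genes of insulin signalling (median 0.01), 7 sugar transporters (−0.05), 24 of cholesterol (0.05), 27 of the integrated stress and unfolded protein responses (0.07), 18 of the circadian clock (0.09) and 38 proteasome subunits (0.07). *Slc2a1*, the basal glucose transporter GLUT1, measured 4.43, 5.63 and 4.85 TPM in WT and 3.33, 3.21 and 3.18 TPM in *Txnip*-/- mice, lower without overlap but not past the test (log2 fold change −0.49, adjusted p = 0.0679), which it did only with all 12 samples in 1 fit. *Trib3*, a target of the integrated stress response, measured 3.97, 4.38 and 4.02 TPM in WT and 7.81, 5.67 and 8.53 TPM in *Txnip*-/- mice (log2 fold change 0.69, adjusted p = 0.0669), and *Asns*, asparagine synthetase and a target of the same response, 56.5, 52.6 and 49.8 TPM in WT against 40.02, 42.1 and 42.7 TPM in *Txnip*-/- mice (log2 fold change −0.34, adjusted p = 0.0618). These members of the stress list lay on opposite sides, neither past the threshold. *Trib3* passed in 1 of 17 alternative fits, without *Txnip*-/- mouse 2 (0.84), and *Asns* in 3, under upper-quartile normalization (−0.36), median centring (−0.37) and with all 12 samples in 1 fit. Among 28 endothelial and vascular genes *Cspg4*, the pericyte proteoglycan NG2, was the only call (log2 fold change −0.41, adjusted p = 0.04699).

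In the remaining lists without a call, genes with the smallest p-values are given with their log2 fold changes. For insulin signalling *Irs3*, an insulin receptor substrate, was at −0.37 (adjusted p = 0.386). For cholesterol they were *Fdft1*, squalene synthase, at 0.52 (adjusted p = 0.0873) and the exporter *Abcg1* at 0.40 (adjusted p = 0.122), and with all 12 samples in 1 fit both passed, *Fdft1* also without *Txnip*-/- mouse 2 (0.67). The clock list gave *Hlf*, a PAR bZIP factor, at −0.30 (adjusted p = 0.264). The proteasome list gave *Psma6* and *Psmc1* at 0.14 (adjusted p = 0.204) and 0.21 (adjusted p = 0.2199). Of 9 tested acyl-CoA thioesterases (median −0.02) *Acot2* of mitochondria was at 0.53 (adjusted p = 0.07704) and *Acot8* of peroxisomes at −0.24 (adjusted p = 0.198). Of 9 thyroid hormone genes (median −0.07) *Thrsp*, the lipogenic protein Spot 14, was at 0.44 (adjusted p = 0.167) and the coactivator *Ncoa1* at 0.30 (adjusted p = 0.209), and *Thrsp* passed without WT mouse 3 (0.58). Of 17 genes of the cell cycle (median 0.06) the D cyclins *Ccnd1* and *Ccnd2* were at 0.50 (adjusted p = 0.199) and 0.41 (adjusted p = 0.198). Of 8 genes of blood cells (median −0.23) the alpha globins *Hba-a1* and *Hba-a2*, near-identical copies whose values are uncertain, were at −0.28 (adjusted p = 0.126) and −0.30 (adjusted p = 0.1001).

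**Figure D4:**
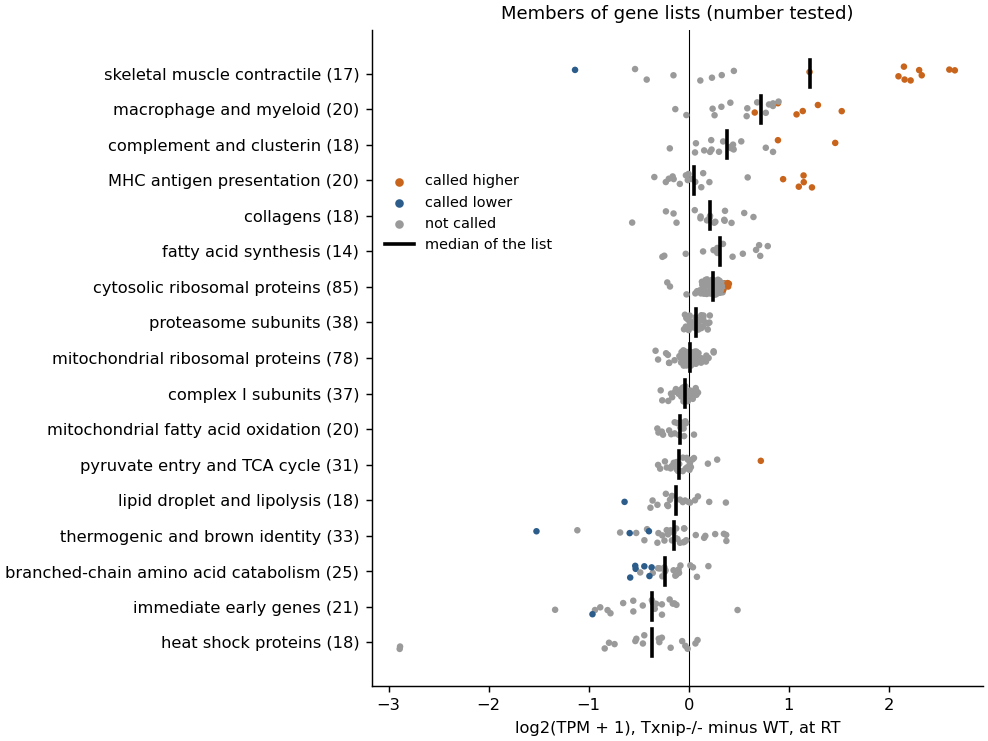
Log2 fold change of *Txnip*-/- over WT at RT (horizontal axis) for the tested members of 17 gene lists, 1 point per gene (*Txnip* not drawn), coloured where called higher or lower and grey where not called, with a black bar at each list's median. The median is 0.73 in the myeloid list and 0.24 in the ribosomal list, where the points are narrowly grouped, and −0.24 in the branched-chain amino acid list.

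Genes close to *Txnip* on chromosome 3 are of interest because a knockout line can carry sequence of its founder strain around the targeted gene. Within 10 Mb on either side 218 genes were tested and 4 were called, all higher, which is 1.835% beside 1.49% over all genes and 2.426% over the 577 tested genes of the whole chromosome. They were *Ctss* at 1.00 Mb, *Tnfaip8l2* at 1.42 Mb, *S100a10* at 2.99 Mb and *Dennd2d* at 9.92 Mb. *S100a10*, the annexin A2 partner p11, measured 143, 137 and 152 TPM in WT and 179, 180.2 and 186 TPM in *Txnip*-/- mice (log2 fold change 0.33, adjusted p = 0.0418). *Tnfaip8l2*, a regulator of immune homeostasis known as TIPE2, rose from 0.778 to 1.74 TPM (log2 fold change 0.63, adjusted p = 0.0381) and passed the filter through its level in *Txnip*-/- mice, and *Dennd2d*, a Rab exchange factor, rose from 2.33 to 4.103 TPM (log2 fold change 0.61, adjusted p = 0.0458). Within 5 Mb 3 of 85 tested genes were called (3.529%), and within 20 Mb 6 of 292 (2.055%). Whether sequence differences near *Txnip* played a part was not tested.

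The RT calls were then read in the TN mice, which are other animals of both genotypes. At TN 1116 of 12891 tested genes were called (8.66%). Of the 91 genes called higher at RT, 86 were tested at TN, 83 had the same sign and 55 were also called higher. Of the 87 called lower, 82 were tested, 74 had the same sign and 45 were also called lower. None of the RT calls that were tested at TN was called in the opposite direction. The share of equal signs over all genes is not given here. Myeloid and complement genes had larger medians at TN, 1.26 against 0.73 and 0.83 against 0.38, and ribosomal genes the same median of 0.24 at both temperatures. The difference between the temperatures was tested gene by gene as an interaction of genotype and temperature in all 12 libraries, and 1 of 12486 genes passed (0.00801%), *Txnip* itself, with 1571 genes at an unadjusted p under 0.05.

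Values for single genes fell into those that were alike at both temperatures and those that were not, without the latter passing that test. *Pon1* had a log2 fold change of −2.43 at TN beside −2.56 at RT, *Gldn* −2.83 beside −2.57 and *Oxct1* −0.86 beside −0.88. *Tfrc*, the largest increase at RT on this scale, had 0.33 (adjusted p = 0.353) at TN, and the difference of −2.36 had an unadjusted p of 5.18e-05 and an adjusted p of 0.0776. *Trp53inp1* had −0.16 (adjusted p = 0.619) at TN, with an adjusted p of 0.0895 for the difference, and *Ier3* 0.38 (adjusted p = 0.407), with 0.171. *Clu* had 2.85 (adjusted p = 0.000214) at TN, above its RT value, with 0.125 for the difference. Thus the transferrin receptor and *Trp53inp1* were called at RT and not at TN, while the difference itself did not pass at a 5% false discovery rate in either.

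**Figure D5:**
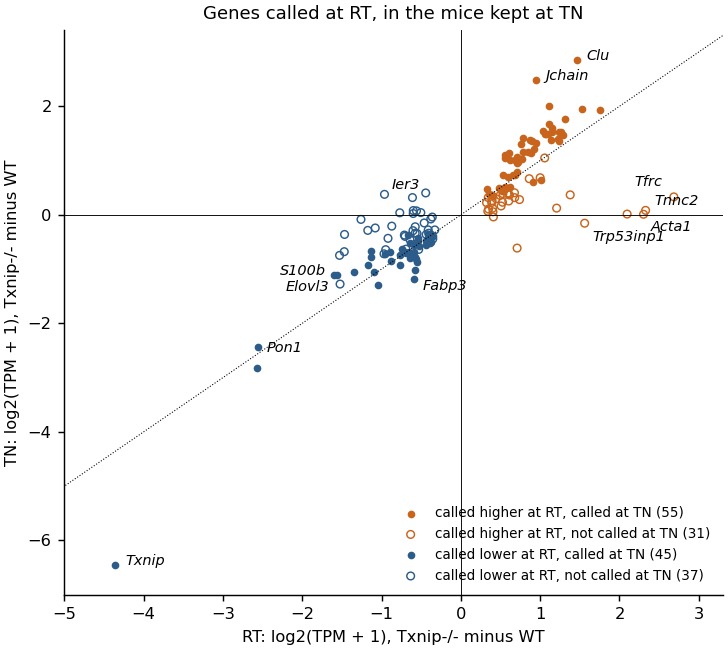
Log2 fold change of *Txnip*-/- over WT at TN (vertical axis) against that at RT (horizontal axis) for those RT calls that were also tested at TN, 1 point per gene, filled where called at TN and open where not, with a dotted line of equal values. Most points lie in the quadrants of equal sign, 83 of 86 for genes called higher and 74 of 82 for genes called lower, and *Tfrc* lies far to the right at a TN value of 0.33.

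Counting strand bears on part of the calls. By the exons of GENCODE, 47 of the 178 called genes share bases with a gene on the opposite strand and 12 with a gene on the same strand, so reads of either partner may be included in their values. These counts leave out *Rpl26* and *Gm15772*, which GENCODE puts on different chromosomes but which lie at the same place and strand in the deposited tables, *Gm15772* wholly within *Rpl26*. Of the named genes counted, those with the greatest part shared with the opposite strand were *Cideb*, which shares 1136 bases with *Nop9* (7.63 TPM over the RT libraries) beside a transcript length of 1166, *Tnnc2*, with 592 of 684 shared with *Ube2c* (1.14 TPM), and *Ldhd*, with 2246 of 2882 shared with *Znrf1* (16.6 TPM). *Txnip* shares 606 of 2788 bases with *Gm15441* (184 TPM). Smaller parts are shared in *Bcat2*, *Cd52*, *Ckm*, *Gstz1*, *Phkg1*, *Rps28*, *Atp2a1*, *Dennd2d*, *Aldh1l1*, *Oxct1*, *Fabp3*, *Mccc1*, *Pcca* and others.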

How the data were processed

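Interscapular BAT of 3 *Txnip*-/- and 3 WT mice at RT was compared, with 6 TN libraries of other mice for the closing comparison, the muscle sums and an alternative fit. The authors selected poly-A RNA, made NEBNext Ultra II libraries, sequenced single-end reads of 75 bases, aligned them to mm10 with STAR 2.7.5a and counted reads on exons with HOMER 4.11.1, keeping 1 transcript per gene. The 12 libraries were deposited as TPM, on which the results here rest. For the RT libraries the authors also deposited log2 values on a normalized log scale whose transform is not named, used here only as an alternative. The deposited tables also hold fold changes and p-values of the authors' own DESeq2 comparison, which were not used. The strand setting of the counting is not given in the sources used here. In the RT libraries the listed genes add up to 56.5% to 57.6% of the TPM total. TPM carry no counting error, so precision rests on the spread between mice. The number of columns left out because no sample matched was 0.

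Genes with a mean of at least 1 TPM over the 6 RT libraries were tested on log2(TPM + 1) with limma 3.58.1 in R 4.3.3, with empirical Bayes moderation, a trend on expression and Benjamini-Hochberg adjustment over all genes tested. Fold changes on this scale understate the change of genes of low level. The design foresaw a count test, which was replaced because the tables used hold TPM. Differences between temperatures were tested as an interaction on all 12 libraries with 4 group means. The script was tested on simulated data.

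Named genes are *Txnip*, the 15 called genes of each sign with the largest change and a mean of at least 5 TPM, the called members of each list or, where none was called, the 2 with the smallest p, called genes within 10 Mb of *Txnip*, and the 5 called genes of each sign with the highest level. Other genes are marked as chosen after their values were seen. Some genes that the rule takes are not reported here by name. The comparison, the 52 lists and the motifs were chosen with earlier results of these data known. Lists are described by counts and medians without a test. Promoters came from RefSeq (GRCm38.p6) and overlapping exons from GENCODE. Alternatives were other pseudocounts, filters, normalizations, thresholds and fits, and each library left out in turn. Figures were drawn with matplotlib 3.10.9.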

Additional observations from a re-analysis of the deposited data

Results flagged for a closer look

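*Txnip* stood out by a difference between the temperatures. *Txnip*-/- against WT mice gave a log2 fold change of −4.36 at RT beside −6.46 at TN. The difference of −2.09 (TN minus RT) passed the limma interaction test over all 12 libraries with an adjusted p of 0.00344. The means (± SD, n = 3) in *Txnip*-/- mice were 29.02 ± 5.59 TPM at RT and 11.98 ± 2.12 TPM at TN, beside 613 ± 70.8 and 1131 ± 92.7 TPM in WT mice. The cause of the difference was not tested.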

How the results depend on the processing

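The call of *Txnip* held in 17 of 17 alternative fits, and no called gene changed sign in any fit. The count of 178 calls depended on the processing more than the signs did. A pseudocount of 5 left 58 genes called higher. Testing all genes above 0 TPM left 44 calls, 20 higher and 24 lower, out of 21970 tests. The fit without an expression trend gave 117 calls with 56 lower, the fit of all 12 samples 272 calls with 145 higher, and an adjusted p under 0.01 with the fold limit 5 calls, 0 higher and 5 lower. With 1 library left out the calls ran from 2 to 159, with 0 to 74 higher and 2 to 85 lower. The number of genes called in the interaction was 4 with the nested replicate block and 1 to 6 with 1 library left out. Several list medians close to 0 changed sign. Under median centring those of fatty acid uptake, antioxidant, insulin signalling and mitochondrial ribosomal genes turned to −0.0028, −0.025, −0.018 and −0.016. Upper-quartile normalization turned the last 3 to −0.021, −0.013 and −0.012. On the log-scale values of the authors the 4 were −0.015, −0.029, −0.027 and −0.022, and that of iron handling −0.027. Leaving out 1 library turned further medians, among them that of glycolysis, to 0.058 without WT mouse 3. The causes of these shifts were not tested.

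Same-numbered RT libraries of the genotypes had deviations from their group means that correlated with r of 0.300, −0.0125 and 0.216 across genes, so the numbers were not taken to pair the mice. With the replicate block 100 genes were called, 48 higher and 52 lower, and 81 of them belonged to the 178. TPM give no counting error, so the limit that depth sets for genes near 1 TPM could not be computed.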
